A study of Mus musculus with 17 samples.

Results

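The genes described here carry out mitosis and cytokinesis: the kinases and cyclins that start cell division, the spindle checkpoint, the kinetochores, the spindle, the condensed chromosomes and the machinery that cuts the cell apart. They were chosen by name for textbook roles in division. No measured value enters the naming of the genes, but the list was drawn up with earlier results of these data known. The kinesin family (Kif genes) was left out, apart from the kinetochore motor Cenpe. Of 48 genes listed, 47 were found among the 18193 genes measured, and Ccnb1 was not analysed here. The 47 genes are represented by 110 probe sets, short sets of oligonucleotides that read transcripts of a gene. Each gene was read by its probe set with the highest mean signal.

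Expression was measured with 17 Affymetrix arrays in cortical cells of hGFAP-eGFP mouse embryos, purified by fluorescence-activated cell sorting. In these mice a human GFAP promoter drives the green fluorescent protein (GFP), so the sorts follow the activity of a transgene and not the Gfap gene itself. At embryonic day 14 (E14) there were 4 arrays of GFP-high and 3 of GFP-low cells that were also selected for Prominin, the surface protein made from Prom1. A further 3 arrays of GFP-high and 3 of GFP-low E14 cells have labels that name no Prominin gate, and these cells are referred to as ungated. From embryonic day 18 (E18) there were 4 arrays of GFP-positive cells selected for Prominin. All groups carry the same transgene and come from the cortex. The study compared subtypes of radial glia, so the questions are how far the division genes differ with GFP level, with the Prominin gate and with age. Whether replicates came from different litters is not labelled, and the p-values therefore reflect sample-to-sample spread that could be technical.

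Radial glia are the dividing stem cells of the embryonic cortex, and they pass through mitosis at the ventricular surface, where Prominin lies on the apical membrane. Their daughters are further radial glia, basal progenitors that divide again, or neurons, which do not divide. Transcripts of most division genes build up late in the cell cycle and are lost on exit from it, so that a population with more cycling cells usually holds more of them. In a bulk sample, fewer dividing cells and less of these RNAs per dividing cell cannot be told apart.

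Many division genes share short promoter elements, the cell cycle genes homology region (CHR) and CCAAT boxes, which are known from studies of late cell cycle transcription. RefSeq windows of GRCm38.p6, from 250 bases before to 50 after a transcription start, were matched by symbol for 41 of the 48 genes, in 45 windows. The letters TTTGAA, the CHR core, were searched on both strands and stood in 28 of the 45 windows (62.2%), against 17.9% of all 32851 windows. CCAAT was found in 34 windows (75.6%), against 37.4% of all. Both motifs stood together in 26 windows (57.8%), against 6.95% of all. In 27 windows of DNA replication genes, TTTGAA was found in 14.8% and CCAAT in 66.7%. TTCCCGC, an E2F core, stood in 4.44% of the windows of division genes, 44.4% of those of replication genes and 4.6% of all. The motifs were searched on both strands and counted separately, so that matches to different motifs may share bases. They are a description of letters, not of sites in use. Of 36 matches to TTTGAA, 26 lay within 50 bases of the start. Sites in overlapping windows of Ect2, Prc1 and Bub3 were counted in each window, and the share over all windows was not computed. The 130 bases before the start are shown, 5′ to 3′ on the gene's own strand, for 6 genes whose levels are followed below. The capitals mark TTTGAA or its reverse complement TTCAAA, and CCAAT or its reverse complement ATTGG.
Cdk1 (chr10:69352913-69353042, minus strand): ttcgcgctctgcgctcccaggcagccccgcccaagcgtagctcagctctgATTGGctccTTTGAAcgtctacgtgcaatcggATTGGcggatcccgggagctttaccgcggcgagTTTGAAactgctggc
Top2a (chr11:99024190-99024319, minus strand): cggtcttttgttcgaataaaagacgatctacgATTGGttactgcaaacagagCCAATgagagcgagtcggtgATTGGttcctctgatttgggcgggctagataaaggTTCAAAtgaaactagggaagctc
Cdc20 (chr4:118437344-118437473, minus strand): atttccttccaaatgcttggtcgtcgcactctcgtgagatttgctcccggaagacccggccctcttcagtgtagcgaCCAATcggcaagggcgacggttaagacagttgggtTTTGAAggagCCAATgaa
Mki67 (chr7:135716380-135716509, minus strand): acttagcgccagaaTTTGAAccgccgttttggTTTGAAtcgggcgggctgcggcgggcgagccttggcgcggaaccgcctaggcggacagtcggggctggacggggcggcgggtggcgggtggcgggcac
Bub3 (chr7:131560240-131560369, plus strand): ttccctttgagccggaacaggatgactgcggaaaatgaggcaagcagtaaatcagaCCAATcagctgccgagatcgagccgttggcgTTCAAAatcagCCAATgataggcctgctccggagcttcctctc
Cdc25b (chr2:131186818-131186947, plus strand): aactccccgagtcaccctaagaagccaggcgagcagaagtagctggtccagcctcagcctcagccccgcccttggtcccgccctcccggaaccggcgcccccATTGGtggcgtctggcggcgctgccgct
Cdk1, Top2a, Cdc20 and Bub3 carry both motifs in these bases. Mki67 has 2 TTTGAA matches here, and its CCAAT boxes lie further upstream in the same window, at -188, -166 and -141 relative to the start. Cdc25b has a CCAAT box and no TTTGAA in its window. Bub3, one of the genes that differed least, has 2 overlapping windows that both hold both motifs, and the bases shown belong to the first. Measured genes with TTTGAA in a window (n = 25) spanned a median of 2.64 on the log2 scale between their highest and lowest group means, and the 15 with a window and no match spanned 2.71.

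Levels below are log2 of the signal plus 16 after quantile normalization, and differences are on the same scale, where 1 is a doubling and dim genes are understated. Each array's value stands in replicate order. A level at or below 6.16 is called near background. That is the 90th percentile of group means of 18 genes of other tissues. Genes were tested with limma over all 18193 genes and are called higher or lower at a Benjamini-Hochberg adjusted p under 0.05. The number of arrays limits the precision.

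The arrays differed in quality measures along the same lines as the groups. On the 7 E14 Prominin-selected arrays the 18S control read 2292 to 5192, against 175 to 627 on the others. The 3′ minus 5′ difference of Gapdh was 0.54 to 2.29 on those 7 arrays, -0.25 to 0.18 on ungated arrays and -0.21 to 1.00 at E18. One labelling kit was used for 12 arrays, namely all Prominin-selected arrays and ungated GFP-high replicate 1, and another for the other 5. Of 7 astroglial markers, Gfap, Aqp4 and S100b were near background in every group. Gja1 (9.24 against 6.33) and Aldoc (12.20 against 9.23) were called higher in ungated GFP-high than ungated GFP-low cells. Aldh1l1 was near background in ungated GFP-low cells and above it in ungated GFP-high cells. Slc1a2 went the other way, near background in ungated GFP-high cells and above it in ungated GFP-low cells. All 6 endothelial and all 6 pericyte and meningeal markers were near background in every group. Of 7 microglia and macrophage markers, Csf1r alone was above background, in both ungated groups and at E18. Of 3 erythroid markers measured, Hbb-y was above background in every E14 group and Alas2 at E18. The summed erythroid signal was 113 to 918 in Prominin-selected GFP-low cells and at most 210 in any other group.

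The median level of the division genes per array was 9.71 to 9.84 in ungated GFP-high cells, 8.47 to 8.82 in Prominin-selected GFP-high cells and 7.83 to 8.35 in Prominin-selected GFP-low cells. It was 7.04 to 7.65 in ungated GFP-low cells and 7.23 to 7.56 at E18. The order ungated GFP-high, Prominin-selected GFP-high, Prominin-selected GFP-low held at the top for 39 of the 47 genes. In 20 of these ungated GFP-low cells stood above E18 cells, and in 19 below. The highest group mean was that of ungated GFP-high cells for 43 genes and of Prominin-selected GFP-high cells for 4, Cks2, Cdc20, Pttg1 and Cdca8. Near background in at least 1 group were 9 genes: Cdc25c, Aurkb, Ndc80, Nuf2, Dlgap5, Gtse1, Tacc3, Ncapg and Anln.

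**Figure D1:**
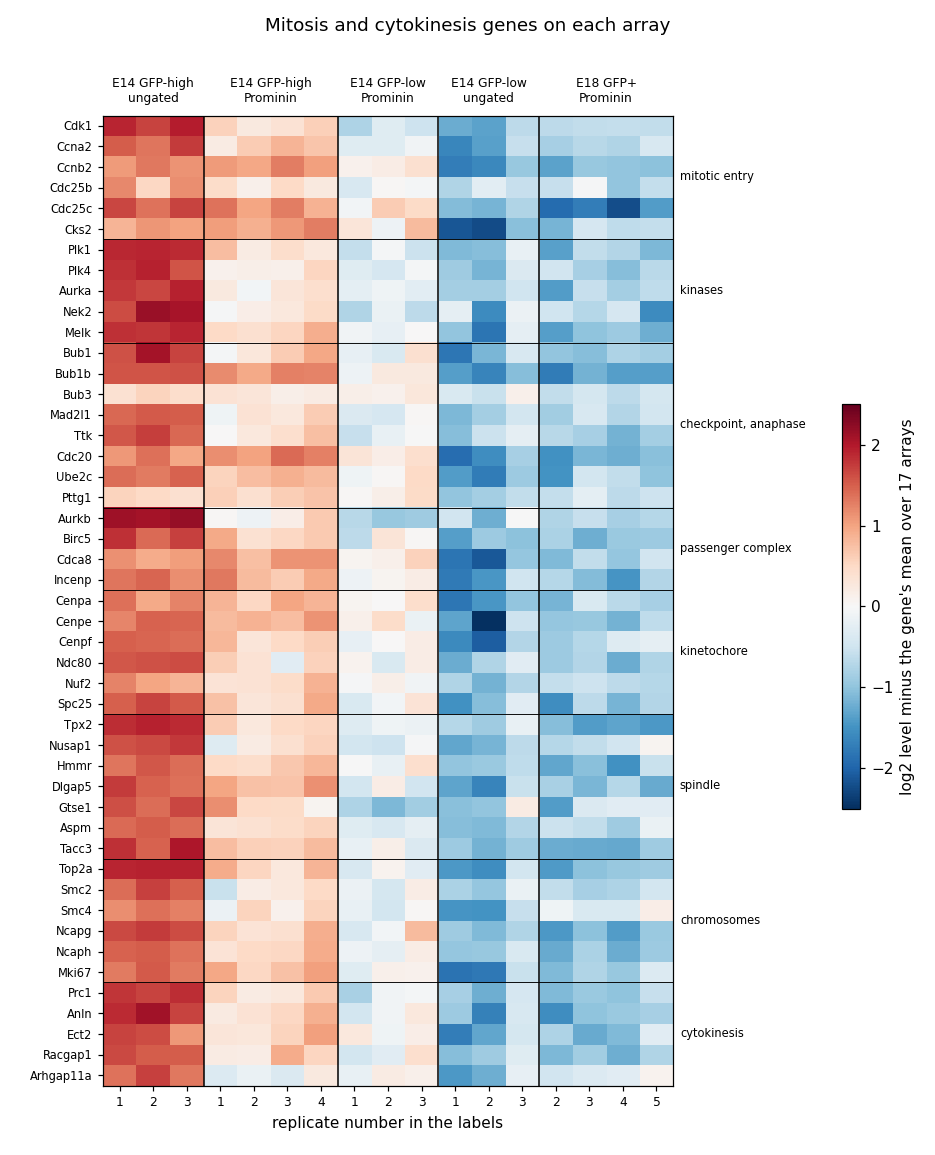
Log2 level of each of the 47 genes on each of the 17 arrays, minus that gene's mean over the arrays; rows are grouped by role and columns by sorted group. The ungated GFP-high arrays are the highest for 43 genes by group mean, and ungated GFP-low replicate 3 stands above the other arrays of its group in most rows.

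The spread within groups was partly shared between genes, most of all among ungated GFP-low cells. Among ungated GFP-low cells, replicate 3 was the highest array for 45 of 47 genes. On that array the summed signal of 11 radial glia markers was 8321, against 5914 and 6115 on the other arrays of the group. That of 7 basal progenitor markers was 6198, against 3860 and 4153, and that of 14 postmitotic neuron markers was 45035, against 48749 and 50525. Their part in the higher division genes was not tested. Among Prominin-selected GFP-high cells replicate 4 was the highest array for 27 genes, and replicate 2 the lowest for 23. Among ungated GFP-high cells the 3 arrays were highest for 10, 23 and 14 genes and lowest for 17, 14 and 16, so that no array stood at one end. The same counts over all genes were not computed.

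Without the Prominin gate, division genes were far more abundant in the GFP-high cells. Of 47 genes 46 were called higher and 0 lower, where 7.61% of all genes were called higher and 8.16% lower. The median difference was 2.59, against -0.01 over all genes tested, and the range was 0.73 to 3.07. Every role took part: the medians ran from 2.44 for checkpoint and anaphase genes to 2.69 for the chromosomal passenger complex.

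Cdk1, the kinase that starts mitosis, read 10.98, 10.77 and 11.05 in ungated GFP-high cells and 7.85, 7.75 and 8.42 in ungated GFP-low cells. The groups were far apart, and the GFP-high level was 7.59 times the GFP-low one (2.92 ± 0.23 SE, adjusted p = 0.000667). Its partners in mitotic entry were called higher too, the cyclins Ccna2 (2.72 ± 0.30) and Ccnb2 (2.60 ± 0.25) and the Cdk subunit gene Cks2 (2.79 ± 0.33). The phosphatase gene Cdc25b, whose product activates Cdk1, differed by 1.49 ± 0.25. The kinase genes Plk1 and Aurka, which act on centrosomes and the spindle, differed by 2.67 ± 0.27 and 2.52 ± 0.18.

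Bub1b, a kinase-like protein of the spindle checkpoint, read 9.67, 9.68 and 9.70 in ungated GFP-high cells and 6.73, 6.45 and 7.03 in GFP-low cells. It showed the largest difference of the checkpoint genes (2.95 ± 0.20, adjusted p = 0.000611). Bub3, which brings checkpoint kinases to kinetochores, read 11.30, 11.49 and 11.37 against 10.54, 10.36 and 11.06. Its groups did not overlap, but the difference of 0.73 ± 0.22 was not called (adjusted p = 0.0723), and its 95% interval was 0.20 to 1.26. Bub3 was the single gene of the 47 not called here. Pttg1, the securin that holds back the separation of sister chromatids, differed by 1.31 ± 0.18.

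Top2a, the topoisomerase that untangles chromosomes, showed the largest difference of all 47. It read 11.66, 11.69 and 11.69 against 8.32, 8.22 and 9.30, which is 8.39-fold (3.07 ± 0.30, adjusted p = 0.0011). Mki67, which coats mitotic chromosomes and encodes the Ki-67 antigen, read 11.13, 11.37 and 11.14 against 7.98, 8.05 and 9.28. That is 6.85-fold (2.78 ± 0.36, adjusted p = 0.00275). In both genes replicate 3 was the highest GFP-low array and still lay under every GFP-high array.

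Among kinetochore genes the motor Cenpe differed by 2.85 ± 0.48, with GFP-low arrays spread from 5.12 to 7.16. Ndc80, which couples kinetochores to microtubules, differed by 2.35 ± 0.26 with its GFP-low mean near background. Of the spindle genes, Aspm, a spindle pole gene known from microcephaly, differed by 2.40 ± 0.18 and Tacc3, which steadies spindle microtubules, by 2.77 ± 0.21. Of the cytokinesis genes, Prc1, which bundles the midzone of the spindle, differed by 2.60 ± 0.23 and Anln, the anillin of the contractile ring, by 2.88 ± 0.33, with its GFP-low mean also near background.

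Among related genes outside the 48, the share called varied by list. Of 25 DNA replication genes measured 22 were called higher (median 2.03), with Mcm6 of the replicative helicase at 2.94 ± 0.22. Of 28 other centromere and kinetochore genes 21 were called higher (median 1.76), and of 17 other genes of mitotic entry 11 (median 1.51). Of 14 genes of the anaphase-promoting complex and of sister separation 1 was called, Espl1, the separase (1.82 ± 0.30), and the median was 0.23. Radial glia markers were higher in 10 of 11 and basal progenitor markers in 6 of 7, while postmitotic neuron markers were lower in 13 of 14. The summed neuron signal was 10867 to 11334 in ungated GFP-high cells and 45035 to 50525 in ungated GFP-low cells. The part of these shifts in the division genes was not tested.

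**Figure D2:**
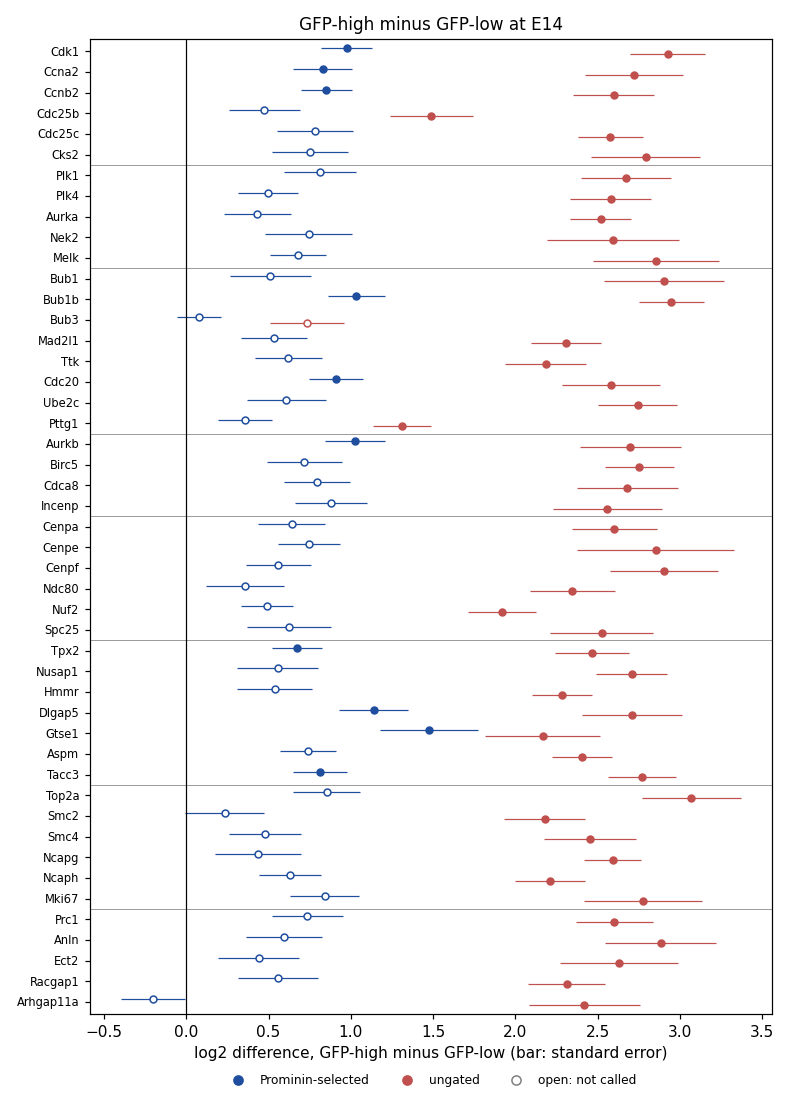
Log2 difference of GFP-high minus GFP-low cells at E14 for each of the 47 genes, among Prominin-selected cells (blue) and ungated cells (red), with standard errors; filled points were called. Every ungated difference lies to the right of the gated one of the same gene.

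Among Prominin-selected E14 cells the division genes were also mostly higher in GFP-high cells, but by much less. Of 47 genes 10 were called higher and 0 lower, where 0.478% of all genes were called higher and 1.2% lower. The difference was positive in 46 genes, with a median of 0.64 against -0.01 over all genes. In 34 of 47 genes every GFP-high array lay above every GFP-low array, which held for 5.72% of all genes. The genes called were Cdk1, Ccna2, Ccnb2, Bub1b, Cdc20, Aurkb, Tpx2, Dlgap5, Gtse1 and Tacc3. These calls rested on single arrays: 0 were left without GFP-low replicate 1 and 3 to 7 without any other array. The count also changed with the processing: it was 0 with a replicate block, 2 with a pseudocount of 1, 4 with the median over probe sets and 19 with a pseudocount of 64. At an unadjusted limma p under 0.05, 39 genes passed with all arrays and 25 without GFP-low replicate 1. The share of all genes at this unadjusted limit is not given here, so these counts have no background to be set against.

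Cdk1 read 9.65, 9.33, 9.44 and 9.68 in Prominin-selected GFP-high cells and 8.31, 8.78 and 8.56 in GFP-low cells. The groups did not overlap, and the GFP-high level was 1.97 times the GFP-low one (0.98 ± 0.15, adjusted p = 0.0125). Of the 6 genes of mitotic entry measured 3 were called, with a median of 0.80. The others, Cdc25b, Cdc25c and Cks2, differed by 0.47 ± 0.21, 0.78 ± 0.23 and 0.75 ± 0.23 and were not called.

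Of the 8 checkpoint and anaphase genes Bub1b and Cdc20 were called. Bub1b read 9.29, 9.05, 9.36 and 9.34 against 7.97, 8.35 and 8.35, which is 2.05-fold (1.03 ± 0.17, adjusted p = 0.0162). Cdc20, the activator of the anaphase-promoting complex, read 11.40, 11.23, 11.65 and 11.49 against 10.55, 10.40 and 10.65, which is 1.88-fold (0.91 ± 0.16, adjusted p = 0.021). Neither gene's groups overlapped. Bub3 read 11.29, 11.23, 11.08 and 11.14 against 11.08, 11.03 and 11.21, and here the groups overlapped. Its difference was 0.08 ± 0.14 with a 95% interval of -0.22 to 0.37.

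Aurkb, the kinase of the chromosomal passenger complex, read 6.92, 6.75, 7.04 and 7.53 in GFP-high cells and 6.19, 5.93 and 5.99 in GFP-low cells. The difference of 1.02 ± 0.18 was called (adjusted p = 0.0224), but the GFP-low mean was near background, so no fold is given. Its partners Birc5, Cdca8 and Incenp differed by 0.72 ± 0.23, 0.79 ± 0.20 and 0.88 ± 0.22 and were not called.

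The spindle genes supplied 4 of the 10 calls. Gtse1, a microtubule-binding gene expressed in G2 and S phase, showed the largest difference of all 47 (1.47 ± 0.30, adjusted p = 0.0325). It read 7.08, 6.42, 6.40 and 5.99 against 5.14, 4.80 and 5.05, with the GFP-low group near background. Dlgap5, which stabilises spindle fibres near chromosomes, differed by 1.14 ± 0.21, and Tacc3 and Tpx2, an activator of Aurka, by 0.81 ± 0.16 and 0.67 ± 0.15. Aspm differed by 0.74 ± 0.17 and missed the threshold (adjusted p = 0.0546).

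No gene of the kinase, kinetochore, chromosome or cytokinesis roles was called here by limma. At an unadjusted p under 0.05, 4 of the 5 kinase genes passed. The share of all genes at that limit and the counts of the other roles are not given here. Mki67 read 10.80, 10.34, 10.57 and 10.85 against 9.52, 9.95 and 9.93, and Top2a 10.69, 10.30, 10.02 and 10.61 against 9.35, 9.84 and 9.47. Neither pair of groups overlapped, yet the differences of 0.84 ± 0.21 (adjusted p = 0.0677) and 0.85 ± 0.20 (adjusted p = 0.0617) were not called. Arhgap11a, listed among the cytokinesis genes, was the single gene with a negative difference, at -0.20 ± 0.19 (95% interval -0.62 to 0.22). It read 7.84, 8.01, 7.81 and 8.42 against 7.99, 8.37 and 8.30, and the groups overlapped.

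Of the 25 replication genes 1 was called higher, Cdt1, which loads the helicase (0.90 ± 0.18), and their median was 0.47. Among other kinetochore genes Zwilch (0.94 ± 0.18) and Cenpn (0.97 ± 0.20) were called. Of 7 Cajal-Retzius markers 6 were lower in GFP-high cells, and their summed signal was 632 to 778 in GFP-high and 3555 to 4896 in GFP-low cells. Postmitotic neuron markers were lower in 8 of 14, with sums of 16073 to 19117 in GFP-high and 28496 to 30422 in GFP-low cells. Radial glia markers were called higher in 3 of 11. The part of these shifts in the division genes was not tested.

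**Figure D3:**
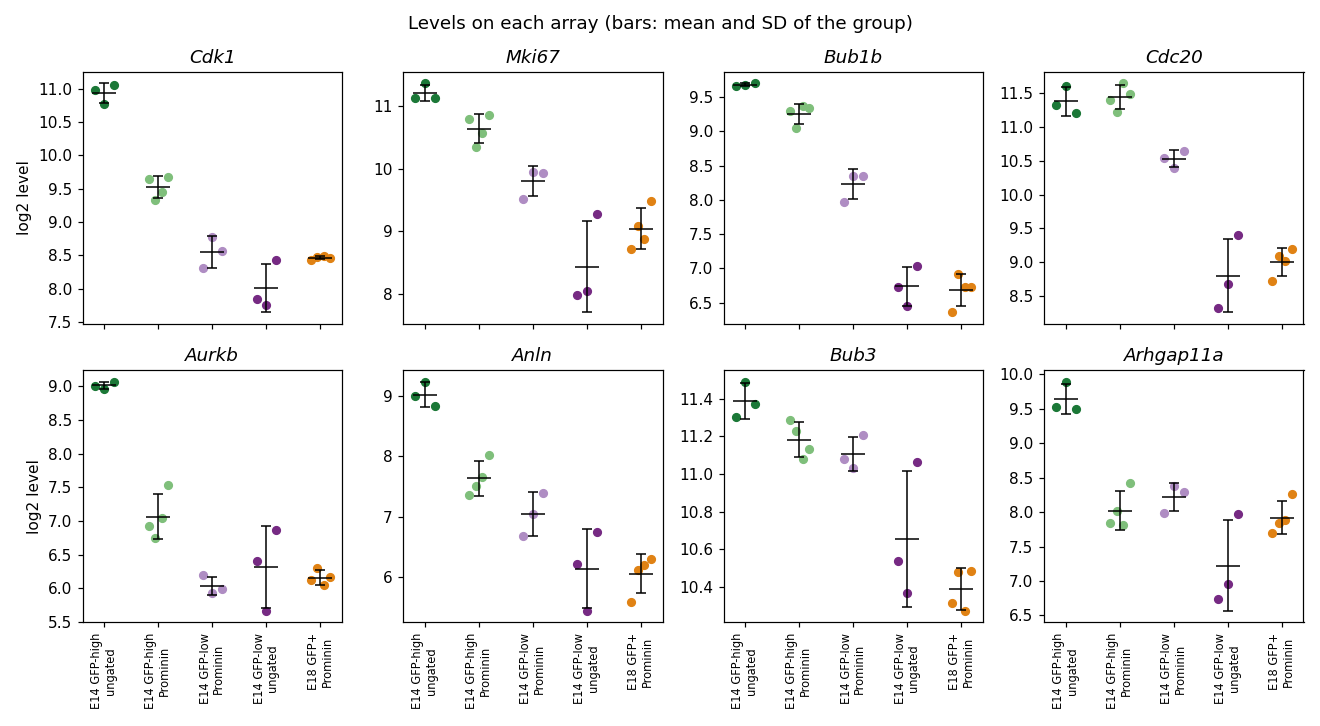
Log2 levels of 8 division genes on each array (points) with the mean and SD of each group (bars); the vertical axes differ between panels. Cdk1, Mki67 and Bub1b step down from ungated GFP-high cells to Prominin-selected GFP-low cells, the Cdc20 values of both GFP-high groups overlap, and Bub3 spans 1.00 between its highest and lowest group means.

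The size of the GFP difference itself differed between gated and ungated cells. Gated and ungated E14 arrays also differed in the quality measures given above. The part of these measures in the change was not tested, so the gate cannot be told apart from them here. The gated minus the ungated difference was negative in all 47 genes, and in 44 it was called lower and in 0 higher, where 3.83% of all genes were called lower and 3.87% higher. The median was -1.90, against 0.00 over all genes, and the range -2.62 to -0.66. The largest was that of Arhgap11a (-2.62 ± 0.37, adjusted p = 0.000516), followed among cytokinesis genes by Anln (-2.29 ± 0.40), whose ungated GFP-low mean was near background. Bub1b differed by 1.03 with the gate and 2.95 without it, a change of -1.91 ± 0.26 (adjusted p = 0.000373). Bub3, Cdc25b and Gtse1 were not called, with 95% intervals of -1.16 to -0.16, -1.72 to -0.31 and -1.69 to 0.31. Replication genes were called lower in 20 of 25 (median -1.40) and radial glia markers in 8 of 11, while postmitotic neuron markers were called higher in 10 of 14.

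This change came from both sides, since Prominin-selected cells were lower than ungated cells in the GFP-high gate and higher in the GFP-low gate. In GFP-high cells 32 of 47 genes were called lower and 0 higher, where 8.98% of all genes were called lower and 11.8% higher, with a median of -1.0 against 0.02. In GFP-low cells 30 were called higher and 0 lower, where 10.8% of all genes were called higher and 8.46% lower, with a median of 0.92 against 0.02. These comparisons share their arrays with the GFP contrasts above, so they restate the same levels from another side.

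In the GFP-high gate the counts called differed by role. All 5 kinase genes were called lower with the gate, with a median of -1.54, and so were all 5 cytokinesis genes, with a median of -1.35. Aurkb fell furthest, from 9.01, 8.96 and 9.07 in ungated cells to the gated values given above (-1.95 ± 0.23, adjusted p = 2.63e-05). Of the 6 mitotic entry genes 2 were called, Cdk1 (-1.41 ± 0.18) and Ccna2 (-0.93 ± 0.22), and of the 8 checkpoint and anaphase genes 3.

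Several genes had a 95% interval of the difference between gated and ungated GFP-high cells that included 0. Cdc20 read 11.32, 11.61 and 11.20 ungated, and the groups overlapped (0.06 ± 0.21, 95% interval -0.39 to 0.52). The intervals of Ccnb2 (-0.48 to 0.30), Cks2 (-0.49 to 0.66), Pttg1 (-0.25 to 0.43) and Cdca8 (-0.50 to 0.52) also lay around 0. Those of Bub3 (-0.55 to 0.14), Incenp (-0.96 to 0.16), Cenpa (-0.85 to 0.083) and Cenpe (-1.18 to 0.18) reached further below 0 but included it. Those of Cdc25c (-0.91 to 0.014) and Mki67 (-1.14 to 0.003) just included it. A second probe set was called lower for Cks2 (-1.28), Pttg1 (-1.11) and Cdca8 (-1.0), while for Cenpe, whose main probe set gave -0.50, another was called higher (1.20). For these 4 genes the direction with the gate therefore depends on the probe set. The differences among the roles were not tested.

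In the GFP-low gate the largest rise was that of Cks2 (2.13 ± 0.29, adjusted p = 0.000144). Cdca8, of the passenger complex, followed (1.89 ± 0.26), then Cdc20 (1.73 ± 0.23), which read 8.32, 8.68 and 9.40 ungated, under every gated value. Kinetochore genes were called in 5 of 6 and kinases in 1 of 5, Melk (0.92 ± 0.28). Aurkb (-0.28 ± 0.25) and Gtse1 (-0.31 ± 0.35) were the only genes with negative differences, and in both the gated GFP-low mean was near background. For Incenp a second probe set was called lower (-0.93) where its main one was called higher (1.28). The count of 30 was 18 without ungated GFP-low replicate 1.

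The labelling kit runs along these comparisons. With the kit as a term the counts were 18 in the GFP-high and 4 in the GFP-low gate, and the medians were -1.05 and 0.92. Ungated GFP-high replicate 1 was labelled with the kit of the gated arrays. On that array 42 of 47 genes lay above every gated GFP-high array, 4 within their range and 1 below. These counts were not computed over all genes. Over the 47 genes that array stood a median of 1.05 above the gated mean, where replicates 2 and 3 of its group stood 1.01 above. The part of the kit was not tested by these values. In the GFP-low gate no kit was used on both sides, so gate and kit cannot be told apart there without the GFP-high arrays. Gate and the 18S and Gapdh differences cannot be told apart in either.

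**Figure D4:**
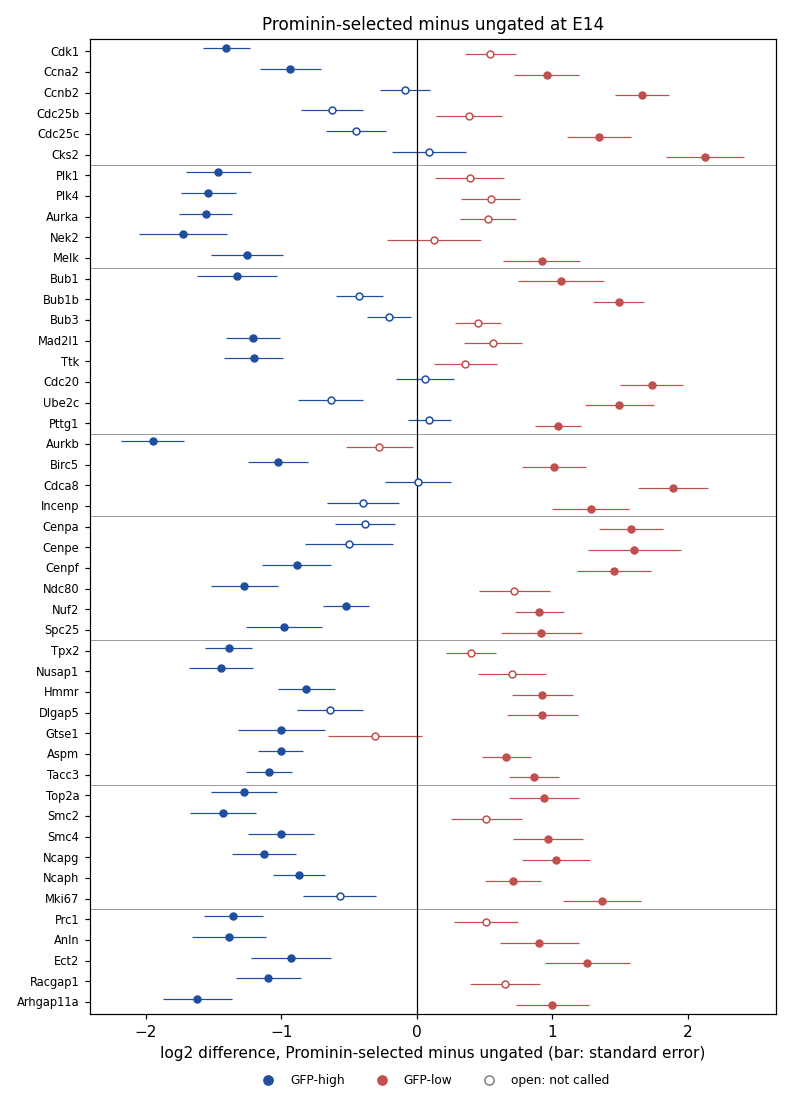
Log2 difference of Prominin-selected minus ungated E14 cells for each of the 47 genes, in GFP-high (blue) and GFP-low cells (red), with standard errors; filled points were called. GFP-high differences lie mostly left of 0, with a median of -1.0, and GFP-low differences mostly right of it, with a median of 0.92.

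At E18 the division genes were mostly lower than in gated E14 cells. The E18 cells are labelled GFP-positive, without a high or low level, so the GFP sort changes together with age. In E18 cells 45 of 47 genes were called lower than in E14 GFP-high Prominin-selected cells and 0 higher, where 16.5% of all genes were called lower and 10.2% higher. The median was -1.40, against -0.07 over all genes, and all 47 differences were negative. Against E14 GFP-low Prominin-selected cells 30 were called lower and 0 higher, where 11.4% of all genes were called lower and 6.02% higher, with a median of -0.86 against -0.10. Both comparisons use the same 4 E18 arrays.

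The phosphatase gene Cdc25c fell furthest. It read 8.76, 8.37, 8.68 and 8.27 in E14 GFP-high cells, 7.32, 8.03 and 7.87 in E14 GFP-low cells and 5.47, 5.67, 5.17 and 6.0 at E18. The E18 arrays were near background and below every E14 array, with differences of -2.94 ± 0.21 (adjusted p = 1.87e-06) and -2.16 ± 0.23 (adjusted p = 9.27e-05). Cdc25b, its relative, differed by -0.88 ± 0.20 against GFP-high cells and by -0.41 ± 0.21 against GFP-low cells, where it was not called.

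Bub1b read 6.36, 6.92, 6.73 and 6.73 at E18 with differences of -2.58 ± 0.16 (adjusted p = 7.21e-07) from GFP-high and -1.54 ± 0.17 from GFP-low cells. Cdc20 read 8.72, 9.08, 9.01 and 9.19 at E18, with differences of -2.44 ± 0.15 and -1.53 ± 0.16. Ccnb2 behaved alike, at -2.16 ± 0.14 and -1.31 ± 0.15. In all 3 genes the E18 arrays lay below every gated E14 array.

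Cdk1 read 8.43, 8.47, 8.49 and 8.46 at E18, lower than in GFP-high cells (-1.06 ± 0.14, adjusted p = 0.000165) but within the spread of GFP-low cells (-0.09 ± 0.15, adjusted p = 0.765). Its cyclin partner Ccna2 was also called lower than in GFP-high cells (-1.26 ± 0.16) and not against GFP-low cells (-0.43 ± 0.18, adjusted p = 0.119). Aurkb (0.12 ± 0.18), Nusap1 (-0.10 ± 0.24) and Aspm (-0.24 ± 0.17) also overlapped between E18 and GFP-low cells. The GFP-low mean of Aurkb was near background.

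Mki67 read 8.72, 9.08, 8.88 and 9.48 at E18, below every gated E14 array, and Top2a read 8.35, 8.73, 8.82 and 8.86, also below them all. Mki67 differed by -1.60 ± 0.19 from GFP-high and -0.76 ± 0.21 from GFP-low cells, and Top2a by -1.72 ± 0.19 and -0.86 ± 0.20. For Top2a the median over its 3 probe sets gave 0.31 against GFP-low cells, the opposite sign (adjusted p = 0.311). Of the condensin genes, Ncapg (-1.75 ± 0.24, with its E18 mean near background), Ncaph (-1.62 ± 0.18) and Smc2 (-0.77 ± 0.22) were called lower than in GFP-high cells. Smc4 differed by -0.45 ± 0.20 and was not called, and the condensin genes were not tested against each other. Against GFP-low cells Smc4 differed by 0.03 ± 0.22.

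Bub3 was lower at E18 than in both E14 groups, at 10.31, 10.48, 10.27 and 10.48, with differences of -0.80 ± 0.13 (adjusted p = 0.0005) and -0.72 ± 0.14 (adjusted p = 0.00338). It was thus called between E18 and both gated E14 groups although it was called in neither GFP contrast. Arhgap11a was called in the ungated GFP contrast and in neither age contrast, at -0.10 ± 0.18 and -0.30 ± 0.19. It read 7.70, 7.84, 7.88 and 8.26 at E18.

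Among related genes, replication genes were called lower than in E14 GFP-high cells in 21 of 25 (median -1.05), led by Cdt1 (-1.89 ± 0.17) and Mcm3 (-2.32 ± 0.22). Against GFP-low cells 10 were called lower and 1 higher, Pcna, the sliding clamp of replication (0.82 ± 0.15). Other kinetochore genes were called lower than in GFP-high cells in 22 of 28. Basal progenitor markers were lower in 6 of 7 against GFP-high cells, and their summed signal was 3224 to 4227 at E18, 11391 to 13231 in GFP-high and 8128 to 9211 in GFP-low cells. Postmitotic neuron markers were higher in 11 of 14 against GFP-high cells, with sums of 32028 to 36382 at E18. Interneuron markers summed to 2984 to 3520 at E18 and 354 to 827 on the gated E14 arrays, and oligodendrocyte lineage markers to 1630 to 2700 against 79.8 to 138. The part of these markers in the lower division genes was not tested. The 18S and Gapdh differences between E14 gated and E18 arrays, and the different GFP sort, cannot be told apart from age.

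**Figure D5:**
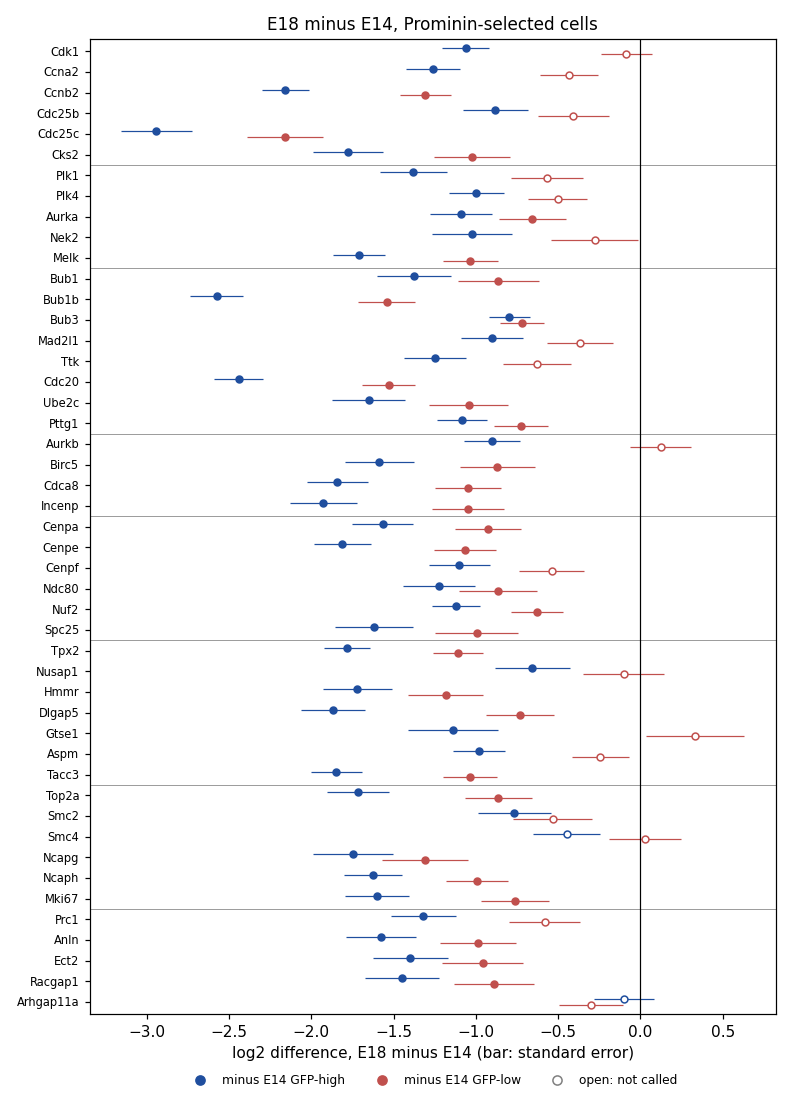
Log2 difference of E18 minus E14 Prominin-selected cells for each of the 47 genes, against E14 GFP-high cells (blue) and E14 GFP-low cells (red), with standard errors; filled points were called. Cdc25c, Bub1b and Cdc20 lie furthest left against GFP-high cells, and Smc4 and Arhgap11a are the open blue points.

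The calls over the 7 comparisons fell into a few patterns. Tacc3 was called in every one of the 7. A group of 11 genes, among them Top2a, Birc5, Bub1, Hmmr and Ect2, was called in all but the gated GFP contrast. A group of 9, among them Mki67, Cdc25c, Cks2 and Ube2c, was in addition not called between gated and ungated GFP-high cells. A group of 8, among them Plk1, Plk4, Prc1 and Mad2l1, was called in neither the gated GFP contrast, the GFP-low age contrast nor the GFP-low gate contrast. These patterns count calls and do not show that the groups differ.

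Other probe sets of the same genes gave a check on the direction. Of 63 further probe sets, 59 had the sign of the main one in the ungated GFP contrast, with 34 called the same way and 0 the opposite way. In the gated GFP contrast 54 had the same sign and 1 was called. Against E14 GFP-high cells 59 of 63 had the same sign, with 29 called alike and 0 opposed. Against E14 GFP-low cells 47 had the same sign, and 2 were called in the opposite direction, for Smc2 (0.90) and Tacc3 (1.17). The fewest shared signs were found between gated and ungated GFP-high cells, 44 of 63, with 19 called alike and 4 opposed. In GFP-low cells 47 shared the sign, with 19 called alike and 1 opposed, and in the difference of GFP contrasts 57, with 20 and 0. The probe sets used for Cdc25c, Cdc20, Aurkb, Incenp and Ncaph carry the suffix for possible cross-hybridisation, so their signal may hold that of other transcripts.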

How the data were processed

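The values are the intensity signals deposited by the authors, 1 linear value per probe set for 45101 probe sets on 17 arrays. Total RNA was extracted on RNeasy columns with DNase treatment and biotin-labelled, per the labels' protocols. The summarisation software is not given in the sources used here, but the trimmed mean was 150.0 on every array, and array medians were 24.2 to 45.1. After 64 control probe sets were left out, 34945 carried 1 gene symbol. Signals were turned into log2(intensity + 16) and quantile normalised, and each gene kept its probe set of highest mean.

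Groups followed the age, GFP and Prominin words of the labels. limma 3.58.1 in R 4.3.3 (lmFit, eBayes, two-sided) tested 7 comparisons over 18193 genes, with Benjamini-Hochberg adjustment at 0.05. The fit used the 11 Prominin-selected arrays for contrasts within them, the 6 ungated arrays for theirs, and all 17 for the gate contrasts and the difference of GFP contrasts. The script was tested on simulated data. Same-numbered replicates had correlations of -0.144 to 0.040 after group means were removed, and numbers were treated as names, not pairs. The alternatives tried were other pseudocounts, no quantile normalization, a filter on dim genes, the median over probe sets, the replicate block, the kit as a term, a fit on all arrays and leaving out arrays.

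The genes and lists were chosen with earlier results of these data known. Named were 20 fixed genes, the 5 largest and 5 smallest differences, opposite signs, and up to 2 called genes per direction in each further list. Others named were chosen after their values were seen. Lists are described by counts and medians, with no set test. Promoter windows come from RefSeq, GRCm38.p6. Figures were drawn with matplotlib.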

Additional observations from a re-analysis of the deposited data

Results flagged for a closer look

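In groups of 4 arrays, the highest or lowest array of 94 combinations of gene and group was compared with the rest, and 3 stood apart (3.19%), where chance gives about 5%. Plk4 in Prominin-selected GFP-high replicate 4 read 8.62, against 8.19 to 8.23 on the other arrays. Gtse1 in E18 replicate 2 read 4.52, against 5.55 to 5.64. Tacc3 in E18 replicate 5 read 6.37, against 5.98 to 6.03.

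The GFP contrast differed between gated and ungated cells, by the test of the difference itself, in 44 of 47 genes. The quality measures of the arrays also differed between gated and ungated cells, and their part was not tested. The gated minus ungated difference of mitotic entry genes was -1.95 for Cdk1 and -1.79 for Cdc25c. Among kinases it was -1.86 for Plk1, -2.09 for Aurka and -1.67 for Aurkb, and among checkpoint genes -1.91 for Bub1b and -1.67 for Cdc20. It was -2.04 for Birc5, -2.11 for Cenpe and -1.99 for Ndc80. For the spindle genes Aspm and Tacc3 it was -1.67 and -1.96. For Top2a, Smc2 and Mki67 it was -2.22, -1.94 and -1.94, and for the cytokinesis genes Prc1 and Anln -1.86 and -2.29. In each of these genes the GFP difference was smaller with the gate. The ungated GFP-low means of Ndc80 and Anln were near background.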

How the results depend on the processing

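The counts of called genes stayed within 1.5 times in every alternative run for the ungated GFP contrast, both age contrasts and the difference of GFP contrasts. The gated GFP contrast did not. Its count of 10 was 2 with a pseudocount of 1, 19 with 64, 18 without the dimmest 40% of genes and 4 with the median over probe sets. It was 0 with a replicate block (limma, 35 genes at an unadjusted p under 0.05). It was also 0 when replicate 1 of GFP-high and replicate 3 of GFP-low cells were dropped together (41 genes). The share of all genes at the unadjusted limit is not given here. Leaving out 1 array gave 0 to 7: dropping GFP-high replicates 1 to 4 in turn left 6, 7, 3 and 3 genes, and dropping GFP-low replicates 1 to 3 left 0, 4 and 3. The cause was not tested. With the kit as a term, the count between gated and ungated cells went from 32 to 18 in GFP-high and from 30 to 4 in GFP-low cells. In the latter, leaving out 1 array gave 18 to 39. The replicate block moved no other count by over 1.5 times.

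Reversals of sign were followed only for the fixed named genes, where either run called the gene. Among these, with the median over probe sets, the sign reversed for Top2a at E18 against E14 GFP-low cells (0.31). It also reversed for Aspm (0.36) and Smc2 (0.094) between gated and ungated GFP-high cells. Without quantile normalization the median of all genes at E18 against E14 GFP-high cells moved from -0.07 to 0.04. The number of arrays and signals near background limit the precision.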
